A study of Mus musculus with 4 samples.

Results

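Whole gonads of male mouse embryos at embryonic day 14.5 (E14.5) were compared with those at E12.5, across the 2 days in which germ cells of the fetal testis take up the male fate. The comparison rests on 4 of the 8 one-colour arrays of the series, the 2 of E14.5 and the 2 of E12.5. They were chosen by the stage in the labels and not by any measured value. The E13.5 arrays of the same series were used to say which changes were already present a day earlier. All groups were wild type, male and of a mouse line named MCH in the labels, with no allele, transgene or agent. In the labels they differed by stage alone, but E14.5 also differed in slide, scan session and scanner software version, as given below. The series text calls the arrays of a stage biological duplicates. How many embryos gave the RNA of an array is not stated in the labels, so p-values here measure the spread between these duplicates. That spread was estimated from all 8 arrays, those of E13.5 and E15.5 included, unless a fit of fewer arrays is named.

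In the fetal testis, Sertoli cells enclose the germ cells in cords, and fetal Leydig cells between the cords make androgens from cholesterol and secrete the testis descent hormone Insl3. Male germ cells of this age switch off genes that they share with pluripotent stem cells, such as Sox2 and the targets of Nodal, stop dividing and do not enter meiosis. They take up Nanos2, Dnmt3l and the proteins of the piRNA pathway, in which small RNAs bound to PIWI proteins guide the silencing and methylation of transposons.

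Every array held 41174 probes apart from controls. Between 64.5% and 69.8% of them were well above background on the arrays compared, by the scanner software's own call. After a filter on dim probes and with 1 probe kept per gene name, 21986 genes were tested. Levels below are log2 values of processed signal, less the log2 of the 75th percentile on the same array, so a level of 0 is that percentile. A level of one gene cannot be set against that of another, because probes differ in brightness. The arrays of E12.5 lay on separate slides, array 1 on slide 1 and array 2 on slide 2, each beside the E13.5 array of the same number. Both E14.5 arrays lay on slide 3, which was scanned in a separate session and read with another version of the scanner software. Slide, session and stage therefore cannot be told apart in any difference between E14.5 and E12.5. The difference between E13.5 and E12.5 can be read within slide 1 and within slide 2. Across genes, arrays correlated at r of 0.977 within E12.5, 0.982 within E14.5 and 0.911 to 0.936 between the stages. Of the marker genes tested, 28 of 28 of Sertoli cells, 23 of 24 of Leydig cells and 18 of 19 of male germ cells were well above background on all 4 arrays. So were 31 of 31 matrix genes and 18 of 18 leukocyte genes. The filter had already required this on both arrays of some stage, so these counts cannot identify the tissue.

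At E14.5, 2999 genes (13.6%) were called higher than at E12.5 and 3297 (15.0%) lower, together 6296 (28.6%) of those tested, by limma with Benjamini-Hochberg adjustment at a threshold of 0.05. Every count of a gene list below is to be read beside these 2 shares, 13.6% higher and 15.0% lower. The median difference of all genes was -0.09 on the log2 scale. Genes called higher had a median difference of 1.41 and those called lower of -1.32, and 878 rose and 725 fell by log2 2 or more. In 14674 genes (66.7%) every array of one stage lay above every array of the other, as it did in all 6296 called genes. Background correction by normexp with extreme background values replaced gave 7753 calls and a different split, of 2563 higher and 5190 lower. The values replaced were those of 3 spots on E13.5 array 2. Plain normexp correction, which kept these 3 values, gave 602 calls. A fit of the 4 arrays of E12.5 and E14.5 alone gave 3787. Leaving out E12.5 array 1 left 3987 calls, leaving out E12.5 array 2 left 3004 and leaving out E14.5 array 1 left 3390. Of all calls, 2326 were made in each of the 8 fits that left out 1 array.

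**Figure D1:**
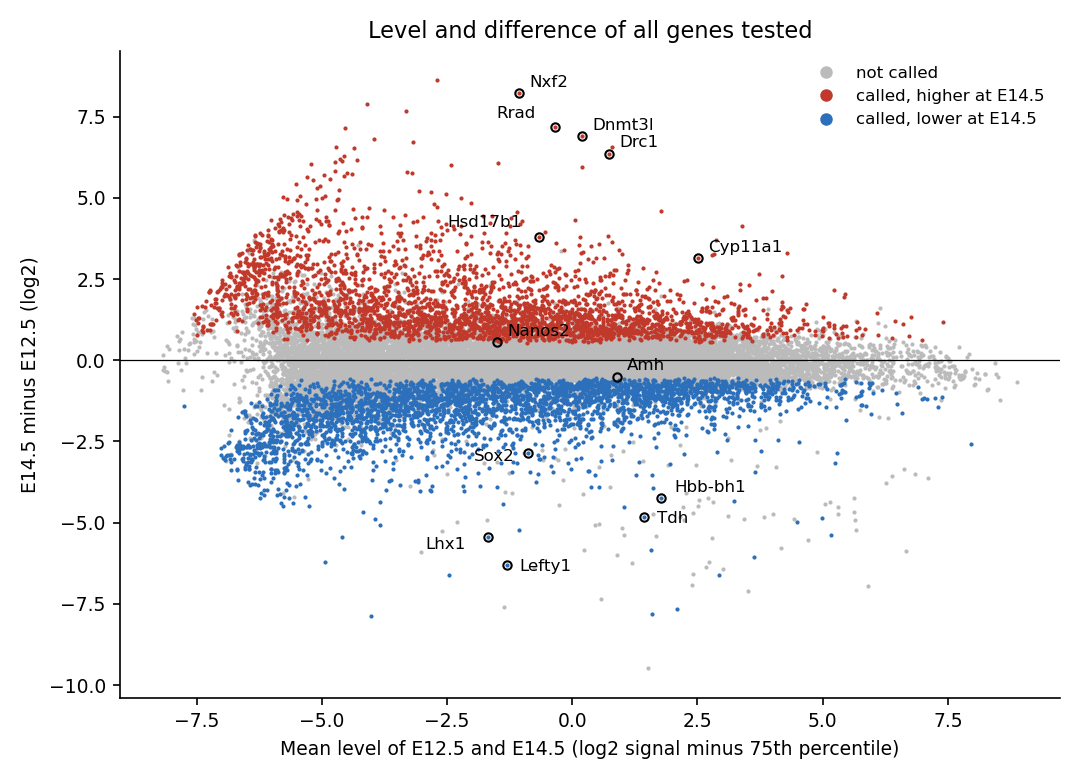
Difference between E14.5 and E12.5 (log2, vertical axis) against the mean level of both stages (log2 signal minus the array's 75th percentile, horizontal axis), 1 point per gene tested. Genes called higher (2999) are red, genes called lower (3297) blue and genes not called grey, and circles mark genes described in the text, from Nxf2 at 8.23 to Lefty1 at -6.31; of the 82 grey genes lower by log2 3 or more, 75 had E12.5 arrays apart by log2 2 or more.

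The largest rise among genes measured in both stages belonged to Nxf2, an X-linked gene of the nuclear RNA export factor family that is active in germ cells. Its level was -5.04 and -5.33 on the E12.5 arrays, 1.47 and 0.01 on the E13.5 arrays and 3.0 and 3.09 on the E14.5 arrays. Both E14.5 arrays lay above both E13.5 arrays, and these above both E12.5 arrays. Nxf2 was 301-fold higher at E14.5 than at E12.5, a log2 difference of 8.23 ± 0.45 (standard error of limma, 2 arrays per stage, as for every ± below; adjusted p = 0.00027), and 5.93 of it was already there at E13.5 (adjusted p = 0.0021). In a whole organ, more cells of a type and more RNA per cell cannot be told apart, here or in any result below.

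Dnmt3l, the cofactor of the enzymes that set new DNA methylation in male germ cells, stood at -2.74 and -3.74 at E12.5, 2.0 and 1.72 at E13.5 and 3.47 and 3.82 at E14.5. The stages did not overlap, and the rise of 6.89 ± 0.34 (limma adjusted p = 0.00022) was 118-fold. The first day held 5.10 of this rise (adjusted p = 0.0015), 4.74 on slide 1 and 5.46 on slide 2.

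Of 19 tested genes of male germ cell fate and the piRNA pathway, 15 were called higher, 1 lower and 3 in neither direction, with a median difference of 2.02 against -0.09 over all genes. At E13.5, 13 of the 19 were already called higher than at E12.5, where 3.98% of all genes were called and 2.68% called higher. The mean level of the list was 0.08 and 0.03 on the E12.5 arrays and 2.77 and 2.47 on the E14.5 arrays. Morc1, a nuclear protein needed to silence transposons in male germ cells, was at -1.07 and -1.35 at E12.5 and at 2.56 and 2.68 at E14.5, a rise of 3.83 ± 0.21 (limma adjusted p = 0.00027). Henmt1, the enzyme that methylates the ends of piRNAs, rose by 5.22 ± 0.35 (adjusted p = 0.00044), and was well above background on 1 of the 2 arrays of E12.5. Tdrd1, a Tudor protein that binds PIWI proteins, rose from 0.91 and 1.14 to 5.10 and 4.32, a log2 difference of 3.69 ± 0.33 (adjusted p = 0.00097). All 3 were already called at E13.5. Mael, a piRNA pathway protein of the germ granule, rose by 2.65 ± 0.21 and the cochaperone gene Fkbp6 by 3.30 ± 0.43 (adjusted p = 0.00066 and 0.0033), of which Fkbp6 was not called at E13.5.

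The list was not of one direction. Dazl, an RNA-binding protein that licenses germ cells for their sexual fate, fell from 3.42 and 2.98 to 1.93 and 1.84, by 1.32 ± 0.24 on the log2 scale (limma adjusted p = 0.0097). It was not called at E13.5, where its difference was -0.36. A second probe of Dazl gave -2.81. Ddx4, the germ cell RNA helicase, was at 3.05 and 3.11 at E12.5 and at 4.56 and 3.72 at E14.5, and its difference of 1.06 ± 0.34 did not pass the threshold (adjusted p = 0.061).

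Nanos2, the RNA-binding protein that carries the male germ cell programme, was high at E13.5 and not at either end of the 2 days. Its level was -1.93 and -1.63 at E12.5, 1.28 and 1.39 at E13.5 and -1.37 and -1.10 at E14.5. It rose by 3.12 in the first day (limma adjusted p = 0.013), 3.21 on slide 1 and 3.02 on slide 2, and fell by 2.57 in the second (adjusted p = 0.017). Between E14.5 and E12.5 the difference was 0.55 ± 0.41 and was not called (adjusted p = 0.35). Nanos3, its relative with a role in germ cell survival, took a like course, with -1.67 and -1.62 at E12.5, 0.27 and 0.64 at E13.5 and -0.53 and -0.77 at E14.5. Its rise of 0.99 ± 0.23 over 2 days was called (adjusted p = 0.023). That call was lost without E12.5 array 1, E12.5 array 2 or E14.5 array 1, at adjusted p of 0.086 to 0.095.

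**Figure D2:**
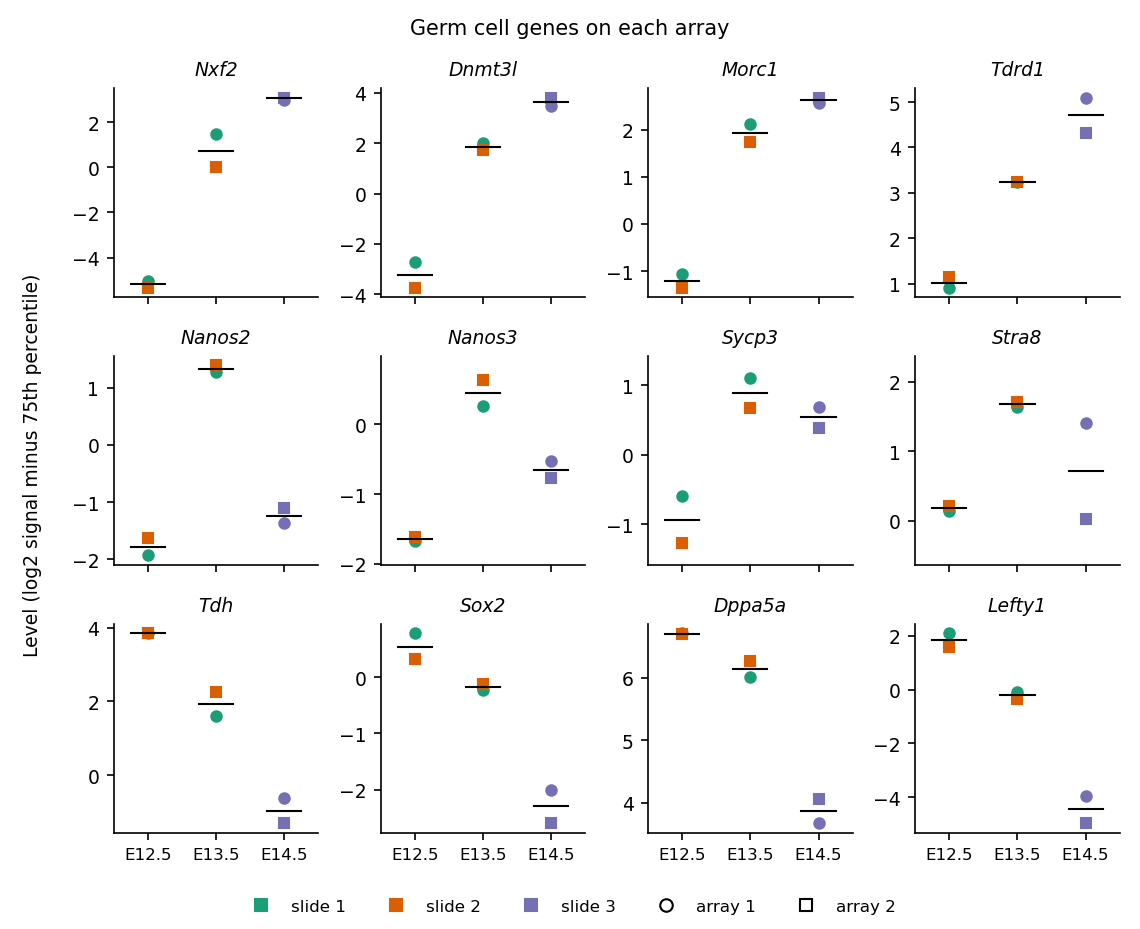
Level (log2 signal minus the array's 75th percentile) for 12 germ cell genes on the 2 arrays of E12.5, E13.5 and E14.5, with points for single arrays coloured by slide, circles for array 1, squares for array 2 and bars for stage means. Nxf2, Dnmt3l, Morc1 and Tdrd1 rise through E13.5, Nanos2 peaks at 1.28 and 1.39 on the E13.5 arrays, and Tdh, Sox2, Dppa5a and Lefty1 are lowest at E14.5.

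The stretch of 250 bases before the start of transcription was read for the genes called higher, since the piRNA pathway genes moved together. The motif searched was CACGTG, the palindromic E-box bound by many basic helix-loop-helix factors, which reads the same on both strands. Of the 15 list genes called higher, 12 matched the RefSeq promoter table of build GRCm38.p6, and 5 of these held the motif, against 1634 (6.05%) of all 27025 promoters. These 5 are printed 5′ to 3′ on the strand of the gene, ending at the base before its start, with each match in capitals. They lie at chrX:134964755-134965004 (minus strand) for Nxf2, chr19:56825959-56826208 (plus) for Tdrd1, chr5:135350045-135350294 (minus) for Fkbp6, chr1:166238745-166238994 (minus) for Mael and chr15:88982744-88982993 (plus) for Mov10l1.
Nxf2: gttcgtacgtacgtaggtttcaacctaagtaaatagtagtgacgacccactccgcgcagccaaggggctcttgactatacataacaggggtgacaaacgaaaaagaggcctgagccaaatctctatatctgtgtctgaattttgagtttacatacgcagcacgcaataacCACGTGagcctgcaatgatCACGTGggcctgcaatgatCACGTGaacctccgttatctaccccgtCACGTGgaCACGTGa
Tdrd1: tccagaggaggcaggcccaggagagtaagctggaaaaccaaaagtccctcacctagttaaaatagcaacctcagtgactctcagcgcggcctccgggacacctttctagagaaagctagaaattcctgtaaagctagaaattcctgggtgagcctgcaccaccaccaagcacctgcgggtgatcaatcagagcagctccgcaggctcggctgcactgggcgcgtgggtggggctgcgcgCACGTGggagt
Fkbp6: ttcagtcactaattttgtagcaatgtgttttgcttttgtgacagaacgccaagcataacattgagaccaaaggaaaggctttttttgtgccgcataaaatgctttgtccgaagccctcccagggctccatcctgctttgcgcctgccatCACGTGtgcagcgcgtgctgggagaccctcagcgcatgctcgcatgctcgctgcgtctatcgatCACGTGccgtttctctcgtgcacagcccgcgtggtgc
Mael: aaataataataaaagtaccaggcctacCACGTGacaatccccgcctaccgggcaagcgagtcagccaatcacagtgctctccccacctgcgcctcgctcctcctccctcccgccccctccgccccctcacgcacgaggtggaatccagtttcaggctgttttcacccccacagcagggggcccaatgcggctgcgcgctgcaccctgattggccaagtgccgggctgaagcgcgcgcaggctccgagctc
Mov10l1: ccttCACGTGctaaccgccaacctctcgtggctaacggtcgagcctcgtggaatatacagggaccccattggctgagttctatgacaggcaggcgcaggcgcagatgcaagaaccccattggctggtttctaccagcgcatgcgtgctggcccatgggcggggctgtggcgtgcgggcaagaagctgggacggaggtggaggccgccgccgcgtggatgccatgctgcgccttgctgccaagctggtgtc
Nxf2 held 5 matches, all within 80 bases of its start, Fkbp6 held 2 and the others 1 each. A match is a run of letters and does not show that a factor binds there. List members not called higher were not counted apart, so whether the motif goes with the rise was not tested. For a gene with several promoter entries the first was read. Mov10l1, an RNA helicase of piRNA production, was named here for its match. It rose by 1.26 ± 0.29 (limma adjusted p = 0.022), a call lost without E12.5 array 2 and without E14.5 array 2 (adjusted p of 0.083 to 0.11), and a second probe gave 0.64.

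Genes of pluripotency and of primordial germ cells went down over the same 2 days. Of 23 tested, 15 were called lower, 1 higher and 7 in neither direction, with a median difference of -1.54, and 5 were already called lower at E13.5. Without E12.5 array 1 the count of lower members was 9, and without E12.5 array 2 it was 8. Tdh, a threonine dehydrogenase known for its high activity in embryonic stem cells, was at 3.85 on both E12.5 arrays, 1.60 and 2.26 at E13.5 and -0.63 and -1.30 at E14.5. It fell by 4.81 ± 0.33 on the log2 scale, or 28.1-fold (limma adjusted p = 0.00045), of which 1.92 was lost by E13.5 (adjusted p = 0.032). Sox2, a core pluripotency factor, went from 0.79 and 0.32 at E12.5 through -0.23 and -0.11 at E13.5 to -2.01 and -2.60 at E14.5. Its fall of 2.86 ± 0.31 (adjusted p = 0.0019) came mostly on the second day, with a difference of -0.73 that was not called at E13.5.

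Dppa5a, an RNA-binding protein of pluripotent cells, was at 6.72 and 6.70, then at 6.01 and 6.27, and then at 3.67 and 4.05. Its first step of -0.57 was not called, and over 2 days it fell by 2.85 ± 0.23 on the log2 scale (limma adjusted p = 0.00066). Pou5f1, which encodes Oct4, was at 2.35 and 2.58 at E12.5 and at 1.64 and 2.18 at E14.5, a difference of -0.55 that was not called (adjusted p = 0.16). Kit, the receptor for the germ cell growth factor Kitl, was at 0.91 and 0.48, then -0.75 and -1.05, then -0.25 and -0.03. Its difference of -0.83 over 2 days was called (adjusted p = 0.038), but in no fit that left out 1 array (adjusted p of 0.054 to 0.17). Dppa4, a chromatin protein of pluripotent cells, was the member that rose, from 2.32 and 1.80 to 4.27 and 3.74, by 1.94 ± 0.28 (adjusted p = 0.0045).

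Nodal is a growth factor of the TGF-beta family, and Lefty proteins are both its targets and its inhibitors. Of 11 tested genes of this pathway 6 were called lower and 0 higher by limma (2 higher at an unadjusted p under 0.05), with a median of -1.59. Lefty1 was at 2.10 and 1.59 at E12.5, -0.08 and -0.36 at E13.5 and -3.95 and -4.97 at E14.5, so that each stage lay below the one before. The fall was 79.1-fold, a log2 difference of -6.31 ± 0.55 (limma adjusted p = 0.00094), and it was not called at E13.5, where it was -2.07 (adjusted p = 0.11). Acvr1c, a Nodal receptor also called ALK7, fell by 2.78 ± 0.38 (adjusted p = 0.0039), with both E13.5 arrays already below both E12.5 arrays and 1 of the 2 arrays of E14.5 above background.

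Some genes stayed too close to background on both arrays of a stage, by the scanner software's call, and such a gene has a bound in place of a fold. The bright stage's mean is divided by a dim mean that takes, for each array, either the probe's level or the lowest level well above background, whichever is greater. Otx2 and Pax6, homeobox transcription factors, were at least 20.7-fold and at least 8.01-fold lower at E14.5, both already called lower at E13.5 (limma adjusted p = 0.021 and 0.013). Spred2, an inhibitor of Ras signalling, was at least 9.18-fold lower, with levels of -2.75 and -2.77 at E12.5, -3.39 and -3.41 at E13.5 and -7.27 and -5.86 at E14.5. Most of that fall lay in the second day and it was not called at E13.5.

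Genes known for meiosis rose in part. Of 19 tested, 10 were called higher, 2 lower and 7 in neither direction, with a median of 0.84. Without E12.5 array 2 the count of lower members was 1. Tex15, a nuclear protein of meiotic repair and transposon silencing, rose from -1.35 and -1.14 to 1.62 and 2.13, by 3.12 ± 0.24 (limma adjusted p = 0.00059). Tex12, a central element protein of the synaptonemal complex, rose by 2.94 ± 0.17 (adjusted p = 0.0003), and Taf7l, a germ cell form of a general transcription factor, by 2.54 ± 0.22 (adjusted p = 0.00092). All 3 were already called at E13.5, where Taf7l had risen by 2.80. Msh4, a meiotic crossover protein, was at least 3.13-fold higher at E14.5. Stra8, the gatekeeper of meiotic entry, was at 0.15 and 0.21 at E12.5, 1.64 and 1.71 at E13.5 and 1.40 and 0.03 at E14.5, and was not called (adjusted p = 0.37). Its E14.5 arrays overlapped those of E12.5. Sycp3, of the lateral element of the synaptonemal complex, rose by 1.47 ± 0.30 (adjusted p = 0.014). That call was lost without E12.5 array 2 and without E14.5 array 1, at adjusted p of 0.066 to 0.069. Sohlh2, a helix-loop-helix factor of germ cells, fell from 1.09 and 1.20 through -0.25 and 0.00 to -2.63 and -2.56, by 3.74 ± 0.18 (adjusted p = 0.0002), and was already called lower at E13.5.

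Cyp26b1, the enzyme with which Sertoli cells clear retinoic acid, fell from 4.37 and 4.46 through 4.08 and 4.17 to 2.85 and 2.84, by 1.57 ± 0.17 (limma adjusted p = 0.0019). Its difference of -0.29 at E13.5 was not called. It was the sole member of 13 tested retinoic acid genes whose call held in every fit that left out 1 array. Of 8 tested genes that set or remove DNA methylation, other than Dnmt3l, 1 was called, Dnmt1, the enzyme that copies methylation, with a difference of -0.78. That call was lost in every fit that left out 1 array except that without E14.5 array 2, at adjusted p of 0.069 to 0.16.

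Leydig cell genes rose, most of them by E13.5. Of 24 tested, 14 were called higher and 0 lower by limma (1 lower at an unadjusted p under 0.05), with a median of 1.23. Of these 14, 13 were already called at E13.5. The mean level of the list was 0.67 and 0.41 on the E12.5 arrays and 1.78 and 2.01 on the E14.5 arrays. Cyp11a1, the enzyme that starts steroid synthesis from cholesterol, was at 0.91 and 0.97 at E12.5, 3.54 and 3.97 at E13.5 and 3.84 and 4.31 at E14.5. It rose by 3.14 ± 0.25 in 2 days (adjusted p = 0.00065), by 2.63 on slide 1 and 3.0 on slide 2 in the first. The E14.5 and E13.5 arrays of Cyp11a1 overlapped, and their difference of 0.32 was not called (adjusted p = 0.4).

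Insl3, the descent hormone, stood at 3.13 and 2.65, then 5.29 and 5.73, then 5.23 and 5.73, a 6-fold rise of 2.58 ± 0.30 (limma adjusted p = 0.0023), against 2.62 at E13.5. Star, which carries cholesterol into the mitochondrion, rose by 2.38 ± 0.22, with 1.76 of it present at E13.5. Cyp17a1, the enzyme of the androgen branch, rose by 2.17 ± 0.26, with 2.04 present at E13.5, and Hsd3b1 by 1.55 ± 0.22, with 1.41 present at E13.5 (adjusted p over 2 days = 0.001, 0.0026 and 0.0045). Lhcgr, the receptor for luteinizing hormone, was not well above background at E12.5 and was at least 8.35-fold higher at E14.5. Agt, the angiotensin precursor that fetal Leydig cells express, rose from -1.67 and -1.59 to 2.11 and 1.73, by 3.55 ± 0.25 (adjusted p = 0.00048). Markers of the adrenal cortex and of nerve cells, which a dissection could include, had 2 of 10 members called higher and 1 lower, the latter in no fit without E12.5 array 1, E12.5 array 2 or E14.5 array 2. Over all genes 13.6% were called higher and 15.0% lower. The mean level of the adrenal and nerve markers was -3.16 and -3.62 at E12.5 and -3.28 and -3.24 at E14.5. Their part in the Leydig result was not tested.

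Genes of cholesterol synthesis and uptake rose in part. Of 23 tested, 10 were called higher and 1 lower with a median of 1.0, and 0 were called at E13.5 by limma (13 higher and 0 lower at an unadjusted p under 0.05), where the list's median was 0.62. Without E12.5 array 1 the count of higher members was 5, and without E12.5 array 2 it was 2. The 1 lower call, of the sterol transporter gene Stard4, was lost without E12.5 array 2 or either E14.5 array (limma adjusted p of 0.081 to 0.15). The 2 that held in every such fit were Cyp51 and Dhcr7, enzymes of the late steps. Cyp51 was at -0.42 and -0.94 at E12.5, 0.29 and 0.16 at E13.5 and 1.19 and 1.46 at E14.5, a rise of 2.0 ± 0.23 (adjusted p = 0.0022). Dhcr7 rose from 2.73 and 2.97 through 3.67 and 4.19 to 4.87 and 4.65, by 1.91 ± 0.28 (adjusted p = 0.0046). In both, each stage lay above the one before. In the same stretch of 250 bases, AAGGTCA, a motif of the steroidogenic factor Nr5a1, was found on either strand before 1 of 12 Leydig genes called higher (Akr1b7) and 1095 (4.05%) of all promoters. TCACNCCAC, a sterol regulatory element, was found before 1 of 9 cholesterol genes called higher (Hmgcs1) and 280 (1.04%) of all.

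Sertoli cell genes were called at about the share of all genes, 13.6% higher and 15.0% lower. Of 28 tested, 5 were called higher, 4 lower and 19 in neither direction, with a median of -0.30 and mean levels of 1.47 and 1.26 at E12.5 and 1.27 and 1.42 at E14.5. Sox9, the factor that sets Sertoli cell fate, was at 2.90 and 2.28 at E12.5 and 2.95 and 2.10 at E14.5, and these overlap. The hormone gene Amh had a difference of -0.50, the ligand gene Dhh of -0.26 and the prostaglandin synthase gene Ptgds of -0.13 (limma adjusted p = 0.097, 0.59 and 0.69), none of them called. Without E12.5 array 2 the count of higher members was 3, and without any one array of E12.5, E14.5 or E15.5 the count of lower members was 2.

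A few Sertoli members did change. Hsd17b1, with which fetal Sertoli cells help to make testosterone, rose from -2.62 and -2.49 through -0.49 and -0.74 to 1.20 and 1.25, by 3.78 ± 0.18, or 13.8-fold (limma adjusted p = 0.0002). It was already called at E13.5, and each stage stood clear of the others. Sostdc1, a secreted antagonist of BMP and Wnt, rose by 2.17 ± 0.27 (adjusted p = 0.0027). Fgf9, the growth factor that sustains Sox9 and germ cells in the early testis, fell from 0.18 and -0.02 through -1.23 and -1.35 to -2.11 and -2.05, by 2.16 ± 0.18 (adjusted p = 0.00079), and was already called lower at E13.5. Inhibins and activins are secreted by testis cells. Of 10 tested genes of inhibins, activins, follistatins and their receptors, 2 were called higher, 2 lower and 6 in neither direction. Inha rose by 1.77 ± 0.30 and Inhba by 1.43 ± 0.18 (adjusted p = 0.0082 and 0.0031). The members called lower were Acvr2b, with a difference of -2.52, and Inhbe, with -0.98, and neither call held in every fit that left out 1 array.

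Genes of the ovarian pathway and Wnt targets had 1 member of 13 called higher and 4 lower, the former in no fit without E12.5 array 1, E12.5 array 2 or E14.5 array 1. Lgr5, a receptor for R-spondins, fell from -0.17 and -0.10 through -1.69 and -1.89 to -1.97 on both E14.5 arrays, by 1.84 ± 0.18 (limma adjusted p = 0.0012), almost all of it by E13.5. Runx1, a factor of the supporting cells of the early gonad and of blood, was at least 2.98-fold lower, and Sp5, a direct Wnt target, fell by 1.48 ± 0.26 (adjusted p = 0.0093). Wnt4 itself was at 0.23 and 0.71 at E12.5 and 0.03 and 0.79 at E14.5, which overlap. Of 16 Notch genes 4 were called higher and 2 lower, of 8 Hedgehog genes 1 lower, and of 15 interstitial progenitor genes 1 higher and 1 lower. Over all genes 13.6% were called higher and 15.0% lower. The calls of these lists that held in every fit that left out 1 array were those of Dll4, a Notch ligand of vessels, which fell by 1.71 ± 0.28 (adjusted p = 0.0074), and Maf, a factor of interstitial cells, which fell by 1.10 ± 0.18 (adjusted p = 0.0067) but had 1.30 on a second probe.

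**Figure D3:**
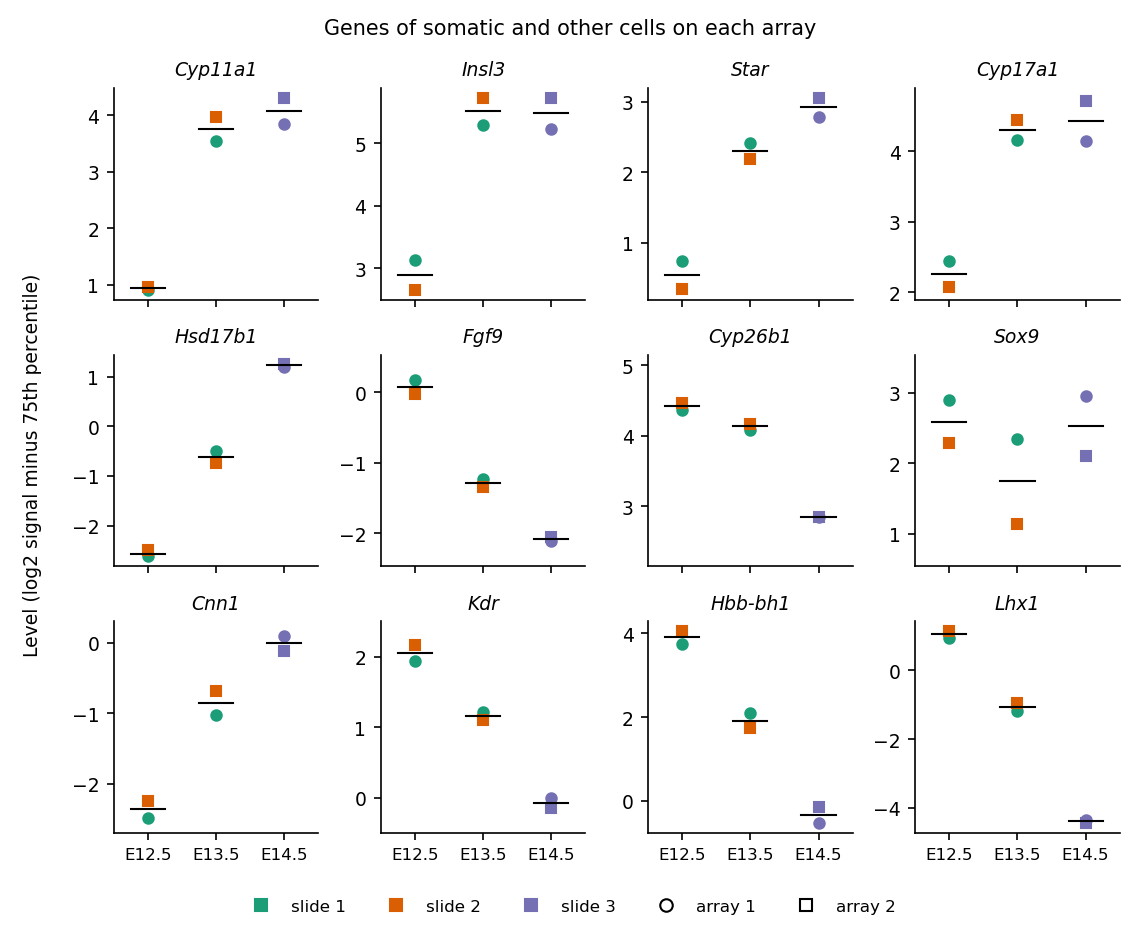
Level (log2 signal minus the array's 75th percentile) for 12 genes of somatic and other cells on the 2 arrays of E12.5, E13.5 and E14.5, drawn as for the germ cell genes. The E13.5 and E14.5 arrays overlap in Cyp11a1, Insl3 and Cyp17a1, Star is highest at E14.5, Hsd17b1 rises and Fgf9 falls on both days, Cyp26b1 falls after E13.5, Sox9 overlaps between stages, and Kdr, Hbb-bh1 and Lhx1 are lowest at E14.5.

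Smooth muscle and matrix genes rose in part. Of 13 tested genes of peritubular and smooth muscle cells 5 were called higher and 0 lower by limma (1 lower at an unadjusted p under 0.05), and of 31 matrix and basement membrane genes 13 were called higher and 4 lower. Cnn1, an actin-binding protein of smooth muscle, rose from -2.49 and -2.24 through -1.02 and -0.68 to 0.10 and -0.12, by 2.35 ± 0.21 (limma adjusted p = 0.00095). Acta2, smooth muscle actin, rose by 1.79 ± 0.19 (adjusted p = 0.0018), and both genes were already called at E13.5. Eln, which encodes elastin, rose by 2.44 ± 0.23 (adjusted p = 0.0011) and Ogn, a small proteoglycan, by 2.58 ± 0.25 (adjusted p = 0.0013). Col18a1, a collagen of basement membranes, fell from 6.41 and 6.74 to 5.26 and 5.05, by 1.42 ± 0.21 (adjusted p = 0.0055). Smooth muscle calls numbered 3 without E12.5 array 1, E12.5 array 2 or E14.5 array 1. Matrix calls that were higher numbered 5 without E12.5 array 1 and 7 without E12.5 array 2 or E14.5 array 1, and those that were lower numbered 1 without either E12.5 array, either E13.5 array, E14.5 array 1 or either E15.5 array.

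Endothelial genes had 8 of 20 members called lower and 1 higher, with a median of -0.52. At E13.5 the list's median was already -0.53. By limma 1 member, Cldn5, was called lower then, against 7 lower and 1 higher at an unadjusted p under 0.05. Kdr, the main receptor for VEGF, fell from 1.94 and 2.16 through 1.21 and 1.10 to -0.01 and -0.15, by 2.13 ± 0.19 (limma adjusted p = 0.00098). Cldn5, a tight junction protein of vessels, fell by 2.0 ± 0.18 (adjusted p = 0.00094), Tie1 by 1.61 ± 0.21 (adjusted p = 0.0034), and the factor gene Erg was at least 2.31-fold lower. Cdh5, the cadherin that defines endothelium, had a difference of -0.57 that was not called (adjusted p = 0.086), and Vwf, the clotting factor stored in endothelium, rose by 2.81 ± 0.31 (adjusted p = 0.002). The count of lower members was 4 without either E12.5 array and 5 without E14.5 array 1.

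Embryonic globin genes fell steeply. Hbb-bh1 was at 3.74 and 4.06 at E12.5, 2.09 and 1.73 at E13.5 and -0.53 and -0.14 at E14.5, a log2 difference of -4.24 ± 0.27, or 18.9-fold (limma adjusted p = 0.00038). Hba-x fell by 3.19 ± 0.24 and Hbb-y by 3.16 ± 0.38 (adjusted p = 0.00058 and 0.0026). These are globins of the primitive red cells that come from the yolk sac. Of 14 tested erythroid genes 6 were called lower and 0 higher by limma (0 at an unadjusted p under 0.05 too), the other 8 differing by -0.60 to 0.28. The mean level of the list was -0.17 and -0.02 at E12.5, -0.95 and -1.13 at E13.5 and -1.30 and -1.15 at E14.5. Of the 6 lower genes 4 were already called at E13.5. The list's median difference from E12.5 was -1.19 at E13.5 and -0.52 at E14.5.

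Markers of the mesonephros, the transient kidney attached to the gonad, also moved. Lhx1, a homeobox gene of nephric epithelium, was at 0.94 and 1.15 at E12.5, -1.17 and -0.95 at E13.5 and -4.35 and -4.44 at E14.5. It fell by 5.44 ± 0.18 on the log2 scale, or 43.4-fold (limma adjusted p = 6.8e-05). Calb1, a calcium-binding protein of kidney tubules, fell by 1.93 ± 0.30 (adjusted p = 0.0061), and in all 6 of 13 members were called lower and 1, Pax8, higher. The call of Pax8 was lost without either E12.5 array, either E13.5 array or E14.5 array 2, at adjusted p of 0.067 to 0.16. The list's mean level was -1.99 and -2.14 on the E12.5 arrays and -3.41 and -3.39 on the E14.5 arrays. Cdh16, a kidney cadherin, was at -0.89 and -0.86 at E12.5, -4.54 and -0.82 at E13.5 and -4.66 and -4.81 at E14.5. Tinag, an antigen of kidney tubules, had the same shape, with -4.58 and -4.39, then -7.97 and -4.33, then -8.14 and -8.48. Read as signal and not as amounts of RNA, these last levels lay below those of Otx2 at E14.5, -7.92 and -8.18. Those of Otx2 were not well above background. In Cdh16 and Tinag the E13.5 array on slide 1 was at the low level and that on slide 2 at the high one. The calls of Cdh16 and Tinag were lost without any one array of E12.5, E14.5 or E15.5, at adjusted p of 0.058 to 0.12. The part of attached tissue in any other result was not tested.

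Among leukocyte markers 2 of 18 were called higher and 1 lower, the latter in neither fit without an E12.5 array. Striated muscle markers had 4 of 11 higher and 1 lower. Over all genes 13.6% were called higher and 15.0% lower. Actc1, cardiac actin, rose by 2.06 ± 0.27 (limma adjusted p = 0.0034) and Tnni2, a troponin of fast muscle, by 1.53 ± 0.17 (adjusted p = 0.0018). Those 2 calls held in every fit that left out 1 array. They were the only higher ones without E12.5 array 2 or any one array of the later stages, and the lower call was lost without either E12.5 array or E14.5 array 1. Genes of motile cilia had 6 of 11 members called higher and 0 lower by limma (1 lower at an unadjusted p under 0.05). Drc1, of the dynein regulatory complex, was at -2.47 and -2.43 at E12.5, 2.40 and 2.41 at E13.5 and 4.14 and 3.67 at E14.5, a rise of 6.36 ± 0.21, or 82.2-fold (adjusted p = 6.8e-05). Tekt1, a tektin of the axoneme, rose by 3.63 ± 0.31 (adjusted p = 0.00086), Rsph1, of the radial spoke, by 2.86 ± 0.29 (adjusted p = 0.0014), and Dnali1, a dynein light chain, was at least 15.7-fold higher.

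Cell cycle genes were lower in part. Of 21 tested genes of S phase 7 were called lower and 0 higher by limma, with a median of -0.69. Of 22 of G2 and M phase 7 were called lower and 0 higher, with a median of -0.40. In neither list was a gene called higher at an unadjusted p under 0.05. Calls at E13.5 by limma numbered 0 in both, against 9 and 8 lower genes at an unadjusted p under 0.05. Ccne1, the cyclin of S phase entry, fell from 2.97 on both E12.5 arrays through 1.95 and 2.27 to 1.74 and 1.49, by 1.36 ± 0.21 (adjusted p = 0.0059), and Ccnb2, a cyclin of mitosis, by 1.33 ± 0.21 (adjusted p = 0.0058). They were the only members of these lists whose calls held in every fit that left out 1 array. The S phase count was 2 without either E12.5 array and 3 without E14.5 array 1. Without E12.5 array 1 the mitotic count was 2, leaving out E12.5 array 2 or E14.5 array 1 made it 1, and it was 4 without either E13.5 array or E14.5 array 2.

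Of 10 genes that restrain the cell cycle, most of them inhibitors of cyclin-dependent kinases, 3 were called higher and 4 lower. The lower count was 2 without E12.5 array 1 or E14.5 array 1 and 1 without E12.5 array 2. Cdkn2c rose from -1.12 and -1.59 through -0.96 and -1.28 to 0.44 and 0.38, by 1.76 ± 0.23 (limma adjusted p = 0.0034), and Cdkn2b by 1.54 ± 0.23 (adjusted p = 0.0055), with Cdkn2b already called at E13.5. Cdkn1c, an imprinted inhibitor, held at 4.95 and 5.16, then 4.97 and 5.23, and was at 3.27 and 3.69 at E14.5, a fall of 1.57 ± 0.25 (adjusted p = 0.0061). Cdkn1b, an inhibitor linked to the arrest of male germ cells, was lower by 1.54 ± 0.39 (adjusted p = 0.03), a call lost without E12.5 array 1, E12.5 array 2 or E14.5 array 1, at adjusted p of 0.086 to 0.13.

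Among homeobox genes of the X-linked Rhox cluster, Rhox9 and Rhox6, both known from germ cells, fell by 3.52 ± 0.31 and 3.17 ± 0.30 (limma adjusted p = 0.00092 and 0.0011). Rhox9 went from 2.98 and 3.1 at E12.5 to 0.13 and 0.36 at E13.5 and -0.11 and -0.85 at E14.5, so most of the fall lay in the first day. Esx1, an X-linked homeobox gene of placenta and testis, was at least 11.5-fold higher at E14.5. Of 27 tested Hox genes 6 were called lower and 0 higher by limma (1 higher at an unadjusted p under 0.05), against 15.0% and 13.6% of all genes. Hoxd4 was at 1.52 and 1.82, then 1.74 and 1.23, then -1.03 and -1.65, a fall of 3.01 ± 0.29 (adjusted p = 0.0012), against -0.19 at E13.5, which was not called. Leaving out E12.5 array 1 made the Hox count 2. It was 3 without E12.5 array 2 or either of the E14.5 arrays. Of 21 imprinted genes 3 were called higher and 4 lower, close to the shares of all genes, 13.6% and 15.0%. Phlda2, which restrains placental growth, rose by 2.19 ± 0.20 (adjusted p = 0.00097), against 2.23 at E13.5, and Peg10, of retroviral origin, was at least 3.99-fold lower. The count of lower imprinted members was 2 without either E12.5 array or E14.5 array 1.

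**Figure D4:**
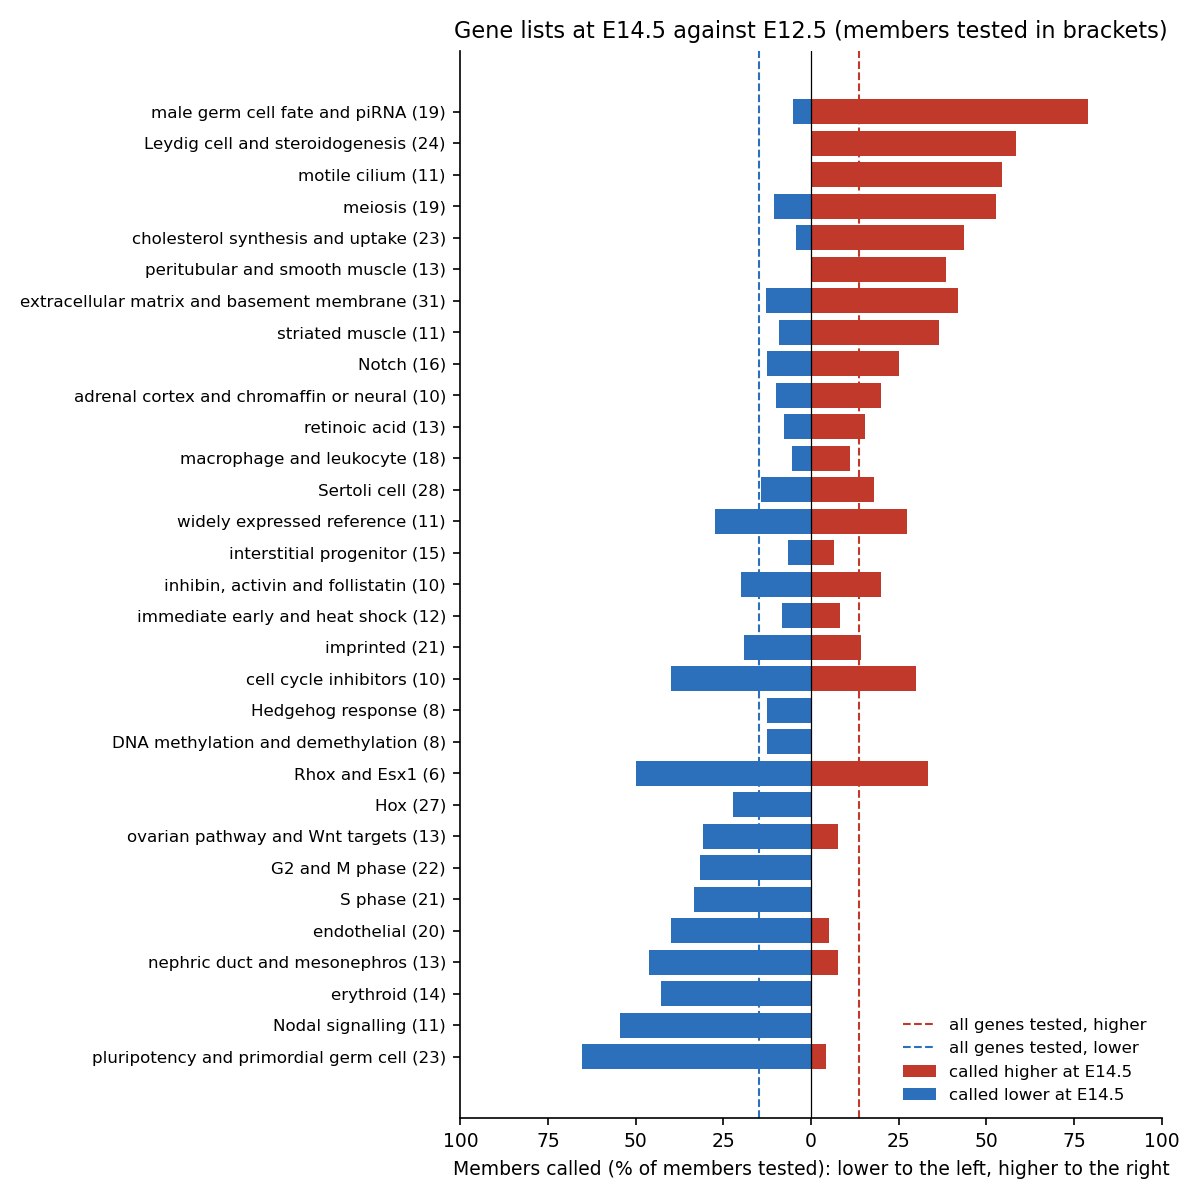
Share of tested members (number in brackets) called higher at E14.5 (red, to the right) or lower (blue, to the left) in each gene list other than the Y-linked one, in percent. Dashed lines give the shares over all genes tested, 13.6% higher and 15.0% lower; the male germ cell list, with 15 of 19 members higher, and the pluripotency list, with 15 of 23 lower, stand at the ends.

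Genes expressed in most tissues were read as a check on scaling. Of 11 such reference genes 3 were called higher, 3 lower and 5 in neither direction, with a median of 0.32. Over all genes 13.6% were called higher and 15.0% lower, with a median of -0.09. With the mean over the probes of a gene, 0 reference genes were called higher and 2 lower. The members moved in both directions, so the list cannot settle whether the scaling was right. Ywhaz rose by 2.47 on the chosen probe and had -0.80 on another, and Actb, at -1.57 and 0.88 on the E14.5 arrays, was not called. Without E12.5 array 2 the higher count was 1. The lower count was 0 without either E12.5 array and 1 without either E14.5 or either E15.5 array.

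Among the genes outside these lists, Rrad, a small GTPase that binds calcium channels, rose from -4.09 and -3.80 through 2.01 and 1.87 to 3.25 on both E14.5 arrays, by 7.19 ± 0.18, or 146-fold (limma adjusted p = 4.5e-05). Slc32a1, the vesicular transporter of inhibitory neurotransmitters, rose by 5.11 ± 0.51, Mapk10, a stress-activated kinase known from neurons, by 5.0 ± 0.52 and Bcan, a proteoglycan of brain matrix, by 4.73 ± 0.28 (adjusted p = 0.0013, 0.0016 and 0.00031). Mageb4, an X-linked gene of germ cells, rose from -0.49 and -0.55 through 3.22 and 2.72 to 4.28 and 3.87, by 4.59 ± 0.26 (adjusted p = 0.00029). All 10 of the largest rises between measured levels were already called at E13.5, where 2.68% of all genes were called higher. The others were Nxf2, Dnmt3l, Drc1, 4930486L24Rik and Marchf1. Both differences subtract the same E12.5 arrays, so they are not independent.

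The largest bound among named genes that rose belonged to Sly, a Y-linked multicopy gene of germ cells whose near-identical copies one probe cannot tell apart. It was at -6.32 and -7.70 at E12.5, -4.97 and -5.83 at E13.5 and 2.57 and 0.65 at E14.5, at least 192-fold higher (limma adjusted p = 0.00079), and was not called at E13.5. Svs5, known as a secretory protein of the seminal vesicle, was at least 89.5-fold higher and Trim61 at least 32.1-fold higher, and both were called at E13.5. Of the genes called higher, 529 were not well above background on either E12.5 array, and of those called lower 428 were not on either E14.5 array.

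Several of the largest falls rested on probes on which slides 1 and 2 differed. Fam110a was at 2.41 on slide 1 and 8.59 on slide 2 at E12.5, 2.28 and 7.74 on the same slides at E13.5, and -2.99 and -1.65 at E14.5. Ifitm3, an interferon-induced gene also known from primordial germ cells, was at 3.77 and 7.03, then 3.73 and 6.75, then 1.12 and 1.02. In both genes the arrays of E12.5 and E13.5 paired by slide and not by stage. In all, 279 genes differed by log2 2 or more between slides 1 and 2 in the same direction at E12.5 and E13.5; 15 of them (5.38%) were called, 12 lower and 3 higher, and 0 of these calls held in every limma fit that left out 1 array. Fam110a, Ifitm3, Khsrp and Fbxo2 lost their calls without E12.5 array 2, either E14.5 array or either E15.5 array (adjusted p of 0.068 to 0.19), and Myl3 without either E14.5 array (0.079 to 0.092). The differences of Khsrp, Fbxo2 and Myl3 were -4.98, -4.87 and -5.22, and other probes of these genes gave -0.84, -0.65 and -0.17. Of the 82 genes lower by log2 3 or more that were not called, 75 had E12.5 arrays apart by log2 2 or more. Syt10, a synaptotagmin, differed between the slides too, at 4.86 and 6.97 and then 4.83 and 6.42, but was at -2.15 and -1.34 at E14.5 and kept its call in every such fit. It fell by 7.66 ± 0.80 (adjusted p = 0.0016). Ap3b2, an adaptor subunit known from neurons, showed no such gap, with 3.34 and 3.25, then 1.98 and 2.39, then -1.03 and -1.40, a fall of 4.51 ± 0.24 (adjusted p = 0.00026).

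The question of timing was taken gene by gene. Calls at E13.5 came from the same fit of all arrays by stage means, which had no slide term. Signs and sizes of the differences were read within slides 1 and 2, which E12.5 and E13.5 share. At E13.5, 590 genes (2.68%) were called higher than at E12.5 and 286 (1.3%) lower, together 876 (3.98%). Fitted on the 4 arrays of E12.5 and E13.5 alone with slide as a block, limma called 0 genes after adjustment and 6377 at an unadjusted p under 0.05. That fit left 1 residual degree of freedom. Within the fit of all arrays, slide as a fixed block gave 981 calls, 640 higher and 341 lower. Without 1 array the count of 876 became 579 (E12.5 array 1), 282 (E12.5 array 2), 274 (E13.5 array 1), 188 (E13.5 array 2) and 497 (either E15.5 array).

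Of the 2999 genes higher at E14.5, 541 (18.0%) were already called higher at E13.5, and of the 3297 lower, 239 (7.25%) were already called lower. Among changes of log2 2 or more these shares were 41.5% and 17.1%. Another 182 higher and 153 lower genes differed the same way at E13.5 by log2 1 or more on both slides without a call. By less, 1541 higher (51.4%) and 2233 lower (67.7%) genes did so. Both differences subtract the same E12.5 arrays, so part of this agreement in direction is built in. How many uncalled genes moved the same way was not counted. Slides 1 and 2 gave opposite signs for 465 higher and 469 lower genes, and both gave the opposite way for 265 and 201. Genes already called higher and lower numbered 149 and 29 without E13.5 array 2, 193 and 61 without E13.5 array 1, 217 and 45 without E12.5 array 2 and 343 and 115 without either E15.5 array. The higher ones numbered 331 without E12.5 array 1, and the lower ones 142 and 144 without the first and the second E14.5 array.

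**Figure D5:**
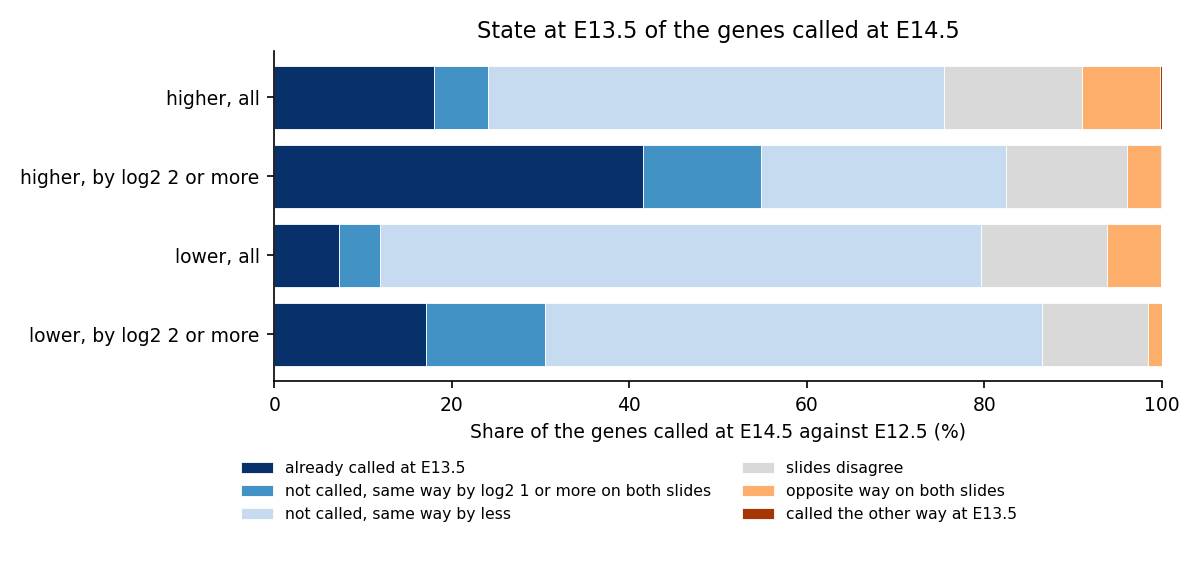
Share of the genes called at E14.5 against E12.5 (horizontal axis, percent) by their state at E13.5 on the slides of E12.5, for all genes called higher or lower and for those that changed by log2 2 or more. By the fit of stage means without a slide term, 18.0% of the higher and 7.25% of the lower genes were already called at E13.5. Among the larger changes these shares were 41.5% and 17.1%.

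Some genes had small differences at E13.5 and large ones at E14.5. Tnnc2, a troponin of fast muscle, was at -3.27 and -3.56, then -2.68 and -3.12, then 1.36 and 0.59, a rise of 4.39 ± 0.34 (limma adjusted p = 0.00064). Ccdc113, a protein of centriolar satellites and cilia, rose by 4.40 ± 0.24 (adjusted p = 0.00027), with 0.95 of it by E13.5. Krt27, a keratin, had a difference of -0.17 at E13.5 and was higher by 3.13 ± 0.25 at E14.5 (adjusted p = 0.00066). Hs6st3, a heparan sulfate sulfotransferase, was at -0.89 and -1.08, then -0.77 and -0.92, then -4.68 and -3.78, a fall of 3.25 ± 0.39 (adjusted p = 0.0025). In these genes the change falls on the step where the slide, the session and the software version change as well. Prm1, a protamine, fell by 6.60 ± 0.59 (adjusted p = 0.00097) on the chosen probe, while its 3 probes ran from -6.60 to 0.64.

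A few genes turned back. Called the other way at E13.5 were 5 of the higher and 2 of the lower genes, among them Myl10, a myosin light chain, at -5.61 and -6.29, then -8.10 and -8.32, then -3.37 and -3.63. It fell by 2.26 in the first day and was higher by 2.45 ± 0.27 after 2 (limma adjusted p = 0.0018). Read as signal and not as amounts of RNA, its E13.5 levels lay near those of Trim61 at E12.5, -8.27 and -7.97. Those of Trim61 were not well above background. The size of the first-day fall of Myl10 is therefore uncertain. A further 47 genes called higher at E13.5 and 42 called lower were not called between E14.5 and E12.5, and Nanos2 was among the former.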

How the data were processed

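Cy3-labelled cRNA of whole gonads was hybridised to one-colour Agilent arrays, 2 per stage. The deposited scanner files hold the linear intensity of each spot. Background subtraction and removal of spatial trends had been done in Agilent Feature Extraction, per the file headers, and arrays were not scaled to each other. Its version is 9.5 in the submitters' processing notes, while the headers give 9.1.3.1 for E12.5 and E13.5 and 9.5.3.1 for E14.5. The authors' deposited table holds 1 column per stage, a linear ratio whose centring and scale are unknown (column medians 1.14, 1, 0.898 and 0.859 from E12.5 to E15.5). Of the 6296 called genes, 6295 had the same direction in the authors' deposited table.

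Of 45018 spots per array 43379 were not controls. Spots of a probe were averaged without outlier spots, and log2 of the processed signal was taken minus the array's 75th percentile (802.1 to 1784.4 over the 8 arrays). A probe was kept if any stage had it well above background on both of its arrays (28188 probes). Accessions in the files were matched without versions to RefSeq symbols (GRCm38.p6): 22951 probes (55.7%) had 1 symbol and 18223 none. The probe of highest mean stood for a gene, and 13474 of 21986 genes tested had a symbol. Slide 2 had 32 and 28 saturated probes on its arrays and the other slides 0.

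All 8 arrays entered 1 fit of stage means (lmFit and eBayes, limma 3.58.1, R 4.3.3; 4 residual and 2.57 prior degrees of freedom), with Benjamini-Hochberg adjustment over all genes. The fit was tested on simulated data. The number of arrays limits the precision. Array numbers do not pair stages by design; the difference of array 2 and array 1 correlated across genes at r of 0.646 between E12.5 and E13.5, which share slides, and at 0.037 between E12.5 and E14.5.

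The genes, lists and comparisons were chosen with earlier results of these data known. Named genes are the 10 largest differences and 5 largest bounds each way, up to 4 called members per list and direction, 5 per timing class and direction, and a set of well-known genes; Mael, Mov10l1, Fkbp6, Tdrd1, Akr1b7 and Hmgcs1 were added for a promoter motif. Alternatives were the scaling, the background correction (normexp on the median signal with offset 50, since a mean signal was not in the columns used), the filter, slide and array number as blocks, array weights, the mean over probes, fewer arrays and each array left out. Some genes are not reported here.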

Additional observations from a re-analysis of the deposited data

How the results depend on the processing

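The counts over 2 days (main 6296 called, 2999 higher, 3297 lower) moved by over 1.5 times under these settings. Normexp gave 602 (313 and 289), the arrays of the 2 stages alone 3787 (1817 and 1970), and normexp with extreme background values replaced, added after seeing the data, 5190 lower. Leaving out 1 array gave 3004 to 5456 calls, 1539 to 2679 higher and 1465 to 2855 lower. Within 1.5 times of the total were 5383 calls with the array number as a replicate block and 5819 with slide as a random block. The E13.5 counts (876, 590 higher, 286 lower) became 2, 2 and 0 under normexp, 552 with 144 lower with background values replaced, 180 lower under median scaling, and 419, 316 and 103 with no filter. They were 139, 121 and 18 on the arrays of the stages compared, 0, 0 and 0 with slide as a block on 4 arrays, 544 with 136 lower under the replicate block, and 444 lower with array weights. Leaving out 1 array gave 188 to 696, 154 to 508 and 34 to 224. Genes already called at E13.5 (541 higher, 239 lower) numbered 2 and 0 under normexp, 296 and 86 with no filter, and 113 and 16 on fewer arrays. The lower ones numbered 149 under median scaling, 137 with background values replaced and 117 under the replicate block. Leaving out 1 array gave 149 to 448 and 29 to 196. The mean over probes reversed Stard4 (0.18) and Maf (0.10), both not called then (limma adjusted p = 0.544 and 0.811). Of 214 named genes, 93 kept their side of the threshold under normexp and 187 under the replicate block. The 2 normexp settings, with 602 and 7753 calls over 2 days, differed only in 3 background values of E13.5 array 2. The causes of the other shifts were not tested, except that fewer arrays leave fewer degrees of freedom. Signal over background limits the 529 genes higher and 428 lower that have a bound.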
